A study of Mus musculus with 4 samples.

Results

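The clustered protocadherins are a long row of related genes on mouse chromosome 18. Their DNA methylation was followed along 136 array probes that lie between positions 36900000 and 38200000 of that chromosome, in file coordinates that fit mouse build mm8. The probes were chosen by position alone, out of 97179 probes with a usable position. No measured value entered that rule, but the cluster itself was chosen with earlier results of these data known. Probes whose starts lay at most 500 bp apart were joined into a run, which gave 38 runs out of 15053 on the whole array. The runs are numbered 1 to 38 in the order of their positions. A run of at least 3 probes was tested, which held for 19 of the 38 and for 14121 of the 15053. Of the others, 13 runs held 1 probe and 6 held 2. The runs fell into 7 blocks, which were split wherever more than 40 kb separated neighbouring runs.

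In a mouse gene table of another build (GRCm38.p6), the region holds the Pcdha cluster with 14 genes, then the Pcdhb cluster with 22, then the Pcdhg cluster with 22. Hars, Hars2 and Zmat2 come before them and Diaph1 and Hdac3 after them in that order. Slc25a2 and Taf7 lie between the Pcdhb and Pcdhg clusters. The deposited files pair no probe with a gene, and no gene table of their build was used, so runs are named by number and position and whether a run lies in an exon, an intron or between genes is not stated. Runs at either end of the window may belong to the neighbours there, and inner runs may belong to Slc25a2 or Taf7.

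Clustered protocadherins are adhesion proteins of the cadherin family that are best known from neurons, where each cell shows its own mix of them at the surface and cells with the same mix recognise each other. In the Pcdha and Pcdhg clusters, each variable first exon has a promoter of its own and is spliced to constant exons shared by the whole cluster, whereas Pcdhb genes consist of a single coding exon each. Promoter choice varies from cell to cell, CTCF and cohesin take part in it, and methylation of the CpG-rich promoters and variable exons goes with silence of the isoform. Variable exons of a cluster resemble each other in sequence, and cross-hybridisation between them was not tested.

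Genomic DNA came from 4 mouse embryonic stem cell samples. They were wild type J1 cells, 2 Parp-1 deficient lines derived from J1 (clones 210-58 and 226-47), and J1 cells treated with PJ34, which inhibits poly(ADP-ribose) polymerases, the enzyme family of Parp-1. Part of the sonicated DNA was immunoprecipitated with an antibody against 5-methylcytidine (MeDIP) and labelled with Cy5, and whole DNA of the same cells was labelled with Cy3. Wild type and clone 210-58 shared slide 1, and clone 226-47 and PJ34 shared slide 2. The dose of PJ34, how long it was applied, the passage number and the origin of the clones in 1 or several targeting events are not stated in the labels. The Parp1 locus itself was not analysed here.

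The level of a run is the mean over its probes of log2 (Cy5 / Cy3), after each array was centred on the median of all its probes. A level of 0 is therefore the array median, and a step of 1 is a 2-fold change in enrichment. It is a relative measure of methylated DNA and not a percentage of methylated CpGs. Of the 136 probes, 128 in wild type, 126 and 130 in clones 210-58 and 226-47, and 126 after PJ34 were well above background in the Cy5 channel. In the Cy3 channel all 136 were well above background on every array. Wild type and PJ34 have 1 array each, so the number of arrays limits precision, and nothing shows the spread between cultures of either. The clones count as 2 samples of one group. The spread behind each SE and p-value is the trend of the clone-to-clone spread with level over all runs. Neither the distance between the clones in a single run nor that run's number of probes enters its p-value. The p-values thus measure only the spread between these 2 arrays over all runs, part of which may be technical.

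The cluster held many runs of few probes that were methylated well above the array as a whole, with low runs between them. In wild type, 19 of the 38 runs had a level of at least 2. Among tested runs the share at that level was 36.8% in the cluster against 9.94% of all 14121 in wild type. For clone 210-58 it was 31.6% against 8.67%, for clone 226-47 10.5% against 6.31%, and for PJ34 42.1% against 9.79%. For clone 226-47 this was 2 of 19 runs, near the share of all runs, and on the other arrays it was 6 to 8 of 19. In wild type the 7 tested runs were runs 4, 6, 9, 13, 17, 18 and 29, and only run 18 had more than 4 probes. The share among all runs of 3 or 4 probes was not counted. The median level over the 19 tested runs was 0.54 in wild type, 0.88 and 0.21 in clones 210-58 and 226-47, and 0.52 with PJ34, where that of all tested runs lay between -0.047 and 0.056. Short runs of 1 or 2 probes were high more often everywhere, at 63.2% in the cluster and 38.2% of all 932 such runs in wild type. Levels also turned over short distances. Of the 7 pairs of neighbouring runs less than 2 kb apart, 5 differed by 2.24 or more in wild type. Runs 8 and 9, for example, are 1278 bp apart and stood at 0.66 and 3.77.

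**Figure D1:**
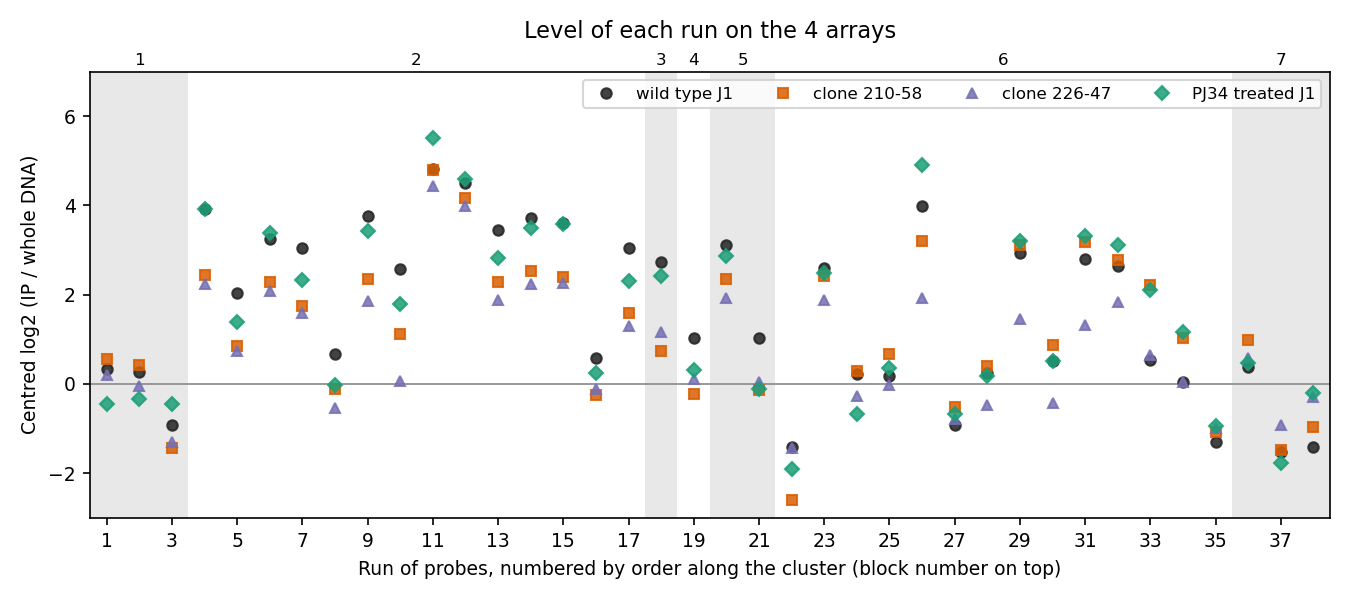
Level of each of the 38 runs (vertical axis, centred log2 of immunoprecipitated over whole DNA) against its order along the cluster (horizontal axis), with 1 point for each of the 4 arrays and the 7 blocks shaded in turn. From run 4 to run 19 both clones lie below both wild type and PJ34, whereas in block 6 clone 226-47 is the lowest in most runs.

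The most uniform difference lay in blocks 2 to 4, the stretch of runs 4 to 19 between 37058076 and 37270557. Both clones were below wild type in all 16 runs of this stretch, and both were below PJ34 in all 16. Over all 15053 runs, both clones were below wild type in 33.8%, and below both wild type and PJ34 in 18.7%. These shares depended on level: among all 625 runs with a mean of 2 to 3 over the 4 arrays they were 69.3% and 61.3%, and among the 876 with a mean of at least 3 they were 45.4% and 44.6%. Of the 16 runs, 6 had a mean of 2 to 3 and 4 a mean of at least 3. A level of the clones' mean below PJ34 was common at such levels across the array. It was seen in 89.2% of the 519 tested runs with a mean of 2 to 3 and in 98.5% of the 662 with a mean of at least 3. The share was 74.4% at a mean of 1 to 2 and 52.9% at a mean of 0 to 1. The count below wild type was 14 of 16 with scaling by the median absolute deviation. The count below PJ34 was 15 of 16 under quantile normalization, 14 under intensity loess and 14 with that scaling. The median level of the 16 runs was 3.15 in wild type, 2.01 and 1.72 in clones 210-58 and 226-47, and 2.62 after PJ34. The median difference from wild type was -1.21 for clone 210-58, -1.40 for clone 226-47 and -0.34 for PJ34. For PJ34 it was -0.61 under quantile normalization, with all 16 runs lower, and -0.65 with scaling by the median absolute deviation, with 15 lower. Of the 47 probes in the stretch, 45 (95.7%) were lower than wild type in both clones, against 33.5% of all probes. The 3 blocks were joined after their values were seen, so the counts describe this stretch and carry no test. Outside it, both clones were below wild type in 6 of 22 runs. Among them were run 3 and runs 20 to 23, which adjoin the stretch, so its ends are not the ends of the fall from wild type. The fall does not rest on the short runs, since the clones were below wild type in all 8 tested runs (median difference -1.48) and in all 8 runs of 1 or 2 probes (median -1.26).

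Run 18 had the lowest adjusted p of the cluster. Its 6 probes span 37215774 to 37216473 and make up block 3 by themselves. The level was 2.73 in wild type, 0.74 and 1.16 in clones 210-58 and 226-47, and 2.41 after PJ34. Wild type and PJ34 were thus high, and the clones were both lower, at 0.95 ± 0.30 (SD, n = 2). The fitted difference of the clones was -1.79 against wild type (SE 0.36, limma adjusted p = 0.000124) and -1.46 against PJ34 (SE 0.36, limma adjusted p = 0.00763). All 6 probes were lower than wild type in both clones. Among all 15053 runs the percentile of run 18 was 92.1 in wild type, 71.8 and 85.6 in clones 210-58 and 226-47, and 90.8 after PJ34.

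Run 19 is a longer run of intermediate level, with 12 probes between 37269319 and 37270557. It stood at 1.02 in wild type, -0.23 and 0.11 in clones 210-58 and 226-47, and 0.31 after PJ34. Here PJ34 lay closer to the clones than to wild type. The clones minus wild type came to -1.08 (SE 0.29, limma adjusted p = 0.0139), and the clones minus PJ34 to -0.37 (limma adjusted p = 0.940). Of the 12 probes, 11 were lower than wild type in each of the clones, and 11 after PJ34. The exception, the sixth probe, was high on all 4 arrays and stood at 1.49 in wild type, 1.85 and 1.61 in clones 210-58 and 226-47, and 1.79 after PJ34. With normexp background correction the difference of run 19 from wild type was -0.52 (limma adjusted p = 0.223).

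**Figure D2:**
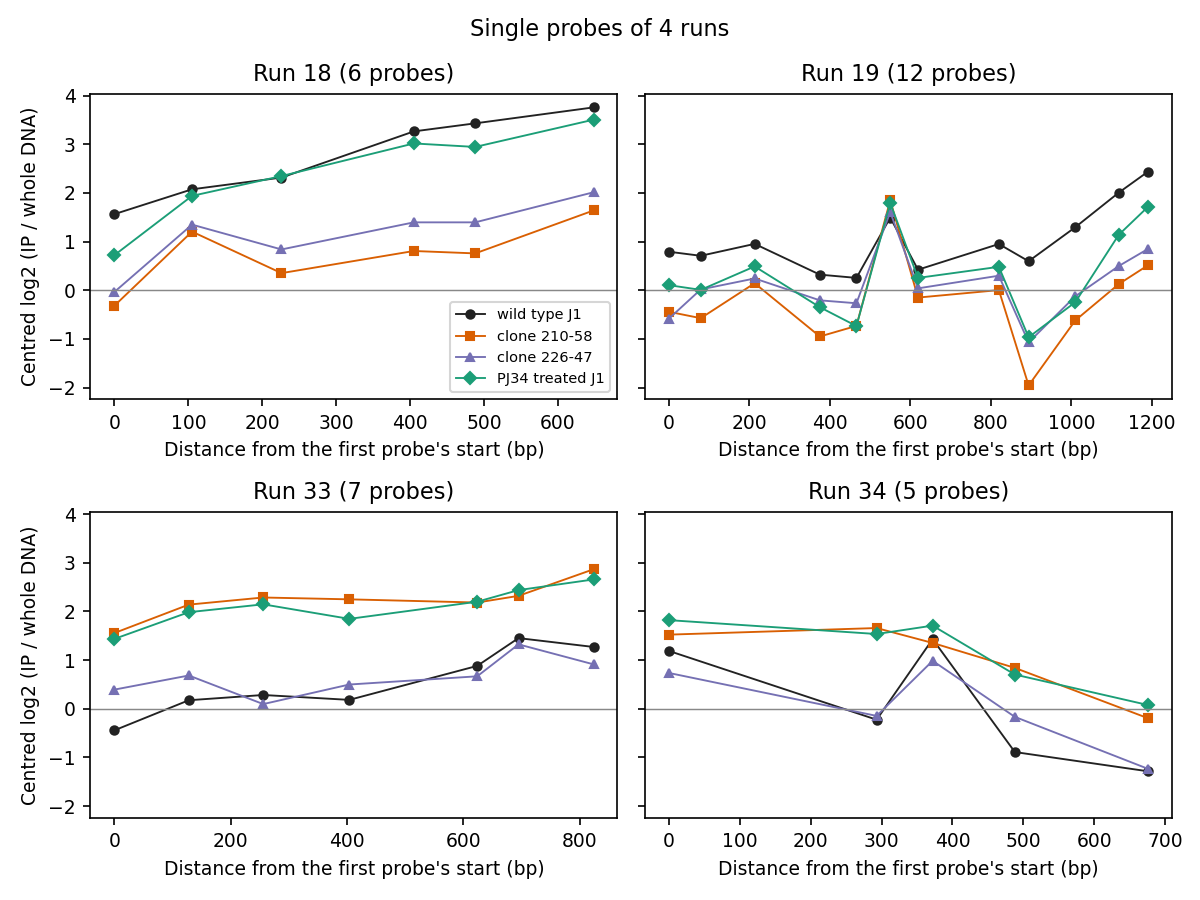
Level of single probes (vertical axis, centred log2 of immunoprecipitated over whole DNA) against distance from the first probe of the run in bp, for runs 18, 19, 33 and 34, with 1 line per array. In run 18 the clones lie below wild type and PJ34 at all 6 probes, and in run 33 clone 210-58 and PJ34 lie above the other two arrays at all 7 probes.

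Block 2 holds 14 runs between 37058076 and 37148268, and its 3 called runs were all strongly methylated in wild type. Run 4 (3 probes, 37058076 to 37058302) read 3.92 in wild type, 2.44 and 2.23 in clones 210-58 and 226-47, and 3.92 after PJ34. Run 9 (3 probes, 37088131 to 37088324) read 3.77, 2.35, 1.86 and 3.42 in the same order. Run 17 (3 probes, 37147897 to 37148268) read 3.05, 1.60, 1.29 and 2.31. In each of these runs the clones lay together and below the other arrays, and PJ34 was at the wild type level in run 4 and lower in runs 9 and 17. The mean of both clones minus wild type was -1.59 in run 4 (SE 0.49, limma adjusted p = 0.0467), -1.67 in run 9 (SE 0.47, limma adjusted p = 0.0183) and -1.61 in run 17 (SE 0.39, limma adjusted p = 0.00380). Against PJ34 the differences were -1.58, -1.32 and -0.86, and none of them passed (limma adjusted p = 0.0963, 0.177 and 0.431). Even so, these runs stayed among the more methylated ones on the array: run 4 was at percentile 96.4 in wild type and at 92.2 and 93.3 in the clones.

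The remaining 3 tested runs of block 2 went the same way without passing the test. Run 13 differed from wild type by -1.37 (limma adjusted p = 0.0697), run 6 by -1.06 (limma adjusted p = 0.243) and run 16 by -0.76 (limma adjusted p = 0.163). PJ34 differed from wild type there by -0.63, 0.14 and -0.34.

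Of the 8 short runs of block 2, the single-probe run 10 (37093630 to 37093689) had the widest gap. It read 2.58 in wild type, 1.12 and 0.06 in clones 210-58 and 226-47, and 1.78 after PJ34, so the clones also differed from each other by 1.06. Runs 14 and 15 kept a high level on every array. Run 14 (1 probe, 37132581 to 37132625) read 3.73 in wild type, 2.54 and 2.25 in clones 210-58 and 226-47, and 3.50 after PJ34. Run 15 (2 probes, 37138004 to 37138170) read 3.61, 2.39, 2.27 and 3.58. PJ34 was nearest to wild type in both, and the clones were near each other.

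The most methylated runs of the stretch differed least from wild type. Run 11 (1 probe, 37095067 to 37095111) read 4.82 in wild type, 4.79 and 4.43 in clones 210-58 and 226-47, and 5.51 after PJ34. Run 12 (1 probe, 37106439 to 37106495) read 4.50, 4.17, 4.0 and 4.60. The clones were below wild type by only 0.03 to 0.50, and PJ34 was above it in both. Tested runs of like level across the array also differed little. Their median clone difference was -0.11 in the bin of mean level centred at 4.25 and 0.12 in that at 4.75. PJ34 was above wild type in 600 of the 662 tested runs with a mean of at least 3 over the 4 arrays. PJ34 was below wild type in run 11 under quantile normalization (-0.39), and in run 12 under quantile normalization (-0.63), loess (-0.25) and scaling by the median absolute deviation (-0.42). With each array scaled by its median absolute deviation, or in the Cy5 channel alone, runs 11 and 12 no longer had both clones below wild type, and the count of the stretch was 14 of 16 in each case.

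**Figure D3:**
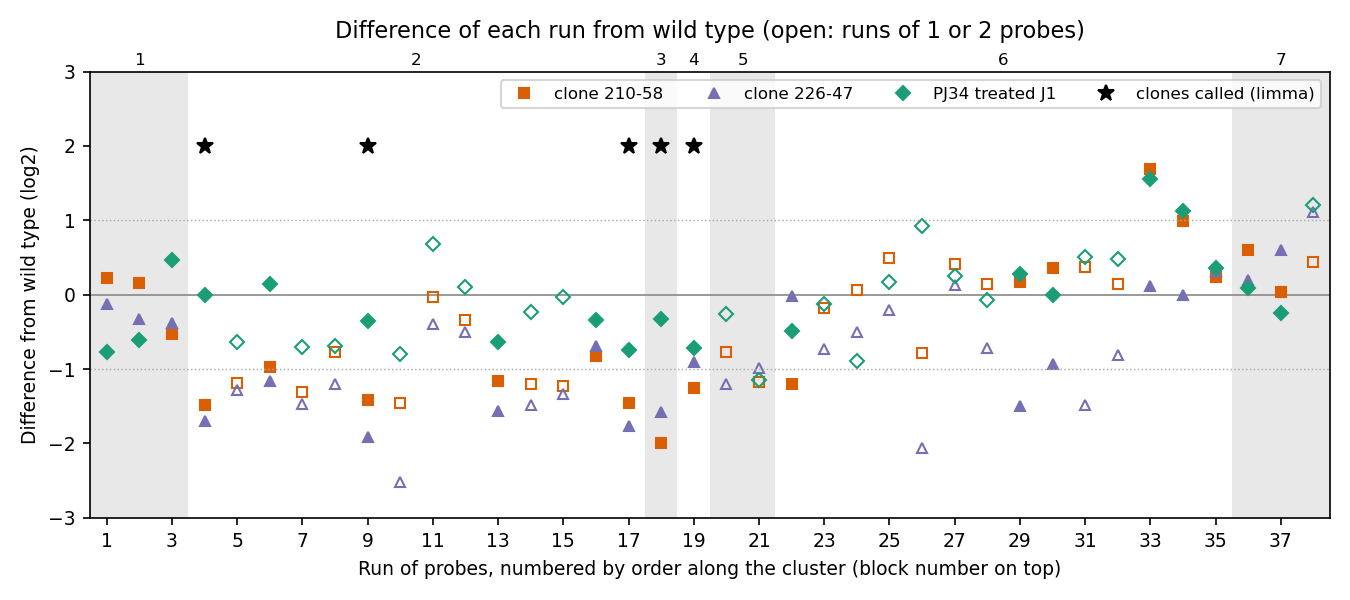
Difference of each run from wild type (vertical axis, log2) for clone 210-58, clone 226-47 and PJ34, against its order along the cluster; filled points are tested runs, open points runs of 1 or 2 probes, dotted lines mark a difference of 1, and stars mark the 5 runs in which the clones were called. The clones are below 0 throughout runs 4 to 19, while PJ34 lies between -0.80 and 0.68 there.

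Beyond run 19 no probe lies within the next 346.57 kb. Block 5 then holds 2 runs of 1 probe each. Run 20 (37617127 to 37617173) read 3.12 in wild type, 2.35 and 1.92 in clones 210-58 and 226-47, and 2.86 after PJ34. Run 21 (37641826 to 37641872) read 1.03, -0.15, 0.05 and -0.12. In run 21 PJ34 was as low as the clones, and its difference from wild type of -1.15 was the furthest below 0 for PJ34 in the cluster.

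Block 6, 14 runs between 37769869 and 37933496, looked different from the stretch before it. There the clones parted relative to wild type: clone 226-47 was below it in 11 of 14 runs and clone 210-58 in 3. Only 6 of the 14 runs were long enough to be tested. Over all 14121 tested runs these shares were 43.2% and 54.4%, and over all 932 runs of 1 or 2 probes 64.7% and 54.5%. Clone 210-58 was above clone 226-47 in 12 of the 14 runs, and also in 13 of the 16 runs of blocks 2 to 4. Across the array that held for 5987 of the 14121 tested runs, and for 468 of the 519 with a mean of 2 to 3 over the 4 arrays. Among the 932 runs of 1 or 2 probes it held for 612. The median difference from wild type was 0.20 for clone 210-58, -0.60 for clone 226-47 and 0.26 for PJ34. The gap was widest in runs that were high in wild type. In the 5 runs of at least 2 in wild type, clone 226-47 was lower in all 5, with a median difference of -1.48, against 0.15 for clone 210-58 and 0.48 for PJ34. Clone 226-47 was lower at high levels across the array as well: over the 519 tested runs with a mean of 2 to 3 over the 4 arrays, its median difference from wild type was -0.72, against -0.26 for clone 210-58 and 0.00045 for PJ34. The 2 sets were chosen in unlike ways. The 5 runs were picked by the wild type value that also enters their differences, and only run 29 of them was long enough to be tested.

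Run 29 is an example of a tested run in block 6, with 4 probes (37879154 to 37879762). It read 2.94 in wild type, 3.11 and 1.45 in clones 210-58 and 226-47, and 3.21 after PJ34. Clone 226-47 alone was below wild type, the clones' mean differed from wild type by -0.66, and the run was not called (limma adjusted p = 0.653). In clone 226-47 the run was still at percentile 88.8 among all runs. Run 26 (1 probe, 37847980 to 37848026) was the highest of the block and read 3.99 in wild type, 3.20 and 1.92 in clones 210-58 and 226-47, and 4.91 after PJ34. Both clones were below wild type and PJ34 above it.

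Adjacent runs 33 and 34 showed a pattern of their own, in which an array of each slide stood high. Run 33 (7 probes, 37892152 to 37893027) read 0.54 in wild type, 2.23 and 0.65 in clones 210-58 and 226-47, and 2.10 after PJ34. Run 34 (5 probes, 37893816 to 37894551) read 0.04, 1.04, 0.03 and 1.17. Clone 210-58 and PJ34 were high in both, and clone 226-47 was near wild type. In run 33 all 7 probes were higher than wild type in clone 210-58 and all 7 after PJ34, compared with 3 in clone 226-47. The clones lay 1.58 apart in run 33, and their mean difference of 0.90 from wild type did not pass (SE 0.33, limma adjusted p = 0.134). With each array scaled by its median absolute deviation it did pass, at 0.90 (limma adjusted p = 0.0381). PJ34 was higher than wild type by 1.56 in run 33 and by 1.13 in run 34, with no replicate to test it. Among all 15053 runs, run 33 was at percentile 68.1 in wild type, 91.1 and 74.5 in clones 210-58 and 226-47, and 89.1 after PJ34.

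The low runs of block 6 were of unequal quality. Run 35, with 14 probes the one with most probes (37931862 to 37933496), read -1.31 in wild type, -1.08 and -0.98 in clones 210-58 and 226-47, and -0.95 after PJ34. Run 27 (1 probe, 37868154 to 37868198) read -0.92, -0.51, -0.78 and -0.67. Run 22 (5 probes, 37769869 to 37770392) read -1.42, -2.61, -1.44 and -1.91. The first of these hardly differed between arrays, and in run 22 only 1 to 3 of the 5 probes were well above background in Cy5 on each array, so its differences are poorly measured. Run 24 (2 probes, 37800372 to 37800838), near the array median, read 0.22 in wild type, 0.28 and -0.28 in clones 210-58 and 226-47, and -0.67 after PJ34.

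The blocks at the ends of the window stayed below a level of 1 on all 4 arrays. In block 1 (36908890 to 36928058), run 1 (6 probes, 36908890 to 36909555) read 0.33 in wild type, 0.56 and 0.21 in clones 210-58 and 226-47, and -0.45 after PJ34. Run 3 (5 probes, 36927474 to 36928058) read -0.91, -1.44, -1.29 and -0.45. PJ34 was the lowest array in run 1, at all 6 probes below wild type, and the highest in run 3. In block 7 (38060821 to 38095743), run 36 (7 probes, 38060821 to 38061713) read 0.39 in wild type, 0.99 and 0.58 in clones 210-58 and 226-47, and 0.47 after PJ34. Run 37 (11 probes, 38080749 to 38082138) read -1.52, -1.49, -0.92 and -1.76. Run 38 (1 probe, 38095699 to 38095743) read -1.41, -0.97, -0.30 and -0.21. The mean of the clones differed from wild type by 0.40, 0.32 and 0.78 in these runs, which with run 33 were the largest positive differences among runs with both clones on one side of wild type, and neither tested run passed (limma adjusted p = 0.739 for run 36 and 1.0 for run 37).

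Counted over the cluster, limma called 5 of the 19 tested runs in the clones against wild type (runs 4, 9, 17, 18 and 19), all lower in the clones and all in blocks 2 to 4. Across the array, 2.78% of runs were called, with 1.59% lower and 1.19% higher in the clones. No run of the cluster was called higher, except run 33 with scaling by the median absolute deviation. At an unadjusted p under 0.05 there were 8 lower and 1 higher in the cluster, against 6.45% and 5.54% of all runs. Against PJ34 the clones were called in 1 of 19 runs, run 18, lower in the clones, where 1.35% of all runs were called, 0.404% lower and 0.942% higher. That comparison shares the clone arrays with the first. Array-wide calls were 104 lower and 322 higher with normexp background correction, against 225 and 168 without it. The cluster's counts, 5 against wild type and 1 against PJ34, fell to 0 when arrays were quantile normalized or fitted with an intensity loess. Under quantile normalization 27 of all 14121 runs were called, all lower, and under loess none, while at an unadjusted p under 0.05 the cluster had 10 lower runs and 0 higher with either. At that p, 10.6% of all runs were lower under quantile normalization and 6.61% under loess. The clones stayed lower in all 16 runs of the stretch under both.

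Sizes were also counted without a test. A fall of at least 1 on the log2 scale was seen in 7 of 19 tested runs in clone 210-58 (3.0% of all runs), in 7 in clone 226-47 (2.96%) and in 0 after PJ34 (1.25%). A rise of at least 1 was seen in 1 run in clone 210-58 (3.31%), in 0 in clone 226-47 (0.963%) and in 2 after PJ34 (2.44%). The count of falls for PJ34 is near its share of all runs. PJ34 passed -1 in run 21, which was too short to be tested. Both clones were on one side of wild type, with a mean fall of at least 1, in 7 runs (2.33%). Clone 210-58 exceeded clone 226-47 by at least 1 in 4 runs (1.41%) and fell below it by that much in 1 (0.977%). The clones' mean was below PJ34 by at least 1 in 4 runs (1.48%; 8 without clone 210-58) and above it in 0 (1.30%), and above wild type in 0 (1.35%). Clone 210-58 and wild type share slide 1, so their counts above are within a slide. On slide 2, 8 runs were lower by at least 1 in clone 226-47 than in PJ34 (3.82% of all runs) and 0 higher (1.10%). Over the 19 tested runs the median difference from wild type was -0.53 for clone 210-58, -0.69 for clone 226-47, -0.61 for their mean and -0.24 for PJ34, and the clones' mean differed from PJ34 by -0.63. Over all tested runs these medians lay between -0.049 and 0.070. With normexp background correction the first 3 medians were -0.16, -0.22 and -0.19. Among runs of 5 or more probes the clones' mean had a median of -0.013. The median of clone 210-58 turned to 0.20 among runs of 5 or more probes and to 0.16 with probes well above background; of the 8 tested runs in blocks 2 to 4, 2 had 5 or more probes.

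The falls were set against runs of like level, since clone differences across the array varied with level. Over all tested runs the median of the clones' mean minus wild type was -0.16 at a mean of 1 to 2. It was -0.48 at a mean of 2 to 3 and -0.18 at a mean of at least 3. Of the 519 tested runs with a mean of 2 to 3, 7.51% were called lower in the clones and their median difference was -0.48. The 5 cluster runs in that range had a median difference of -1.37, and 2 of them were called. Of the 4484 runs with a mean of 0 to 1, 2.03% were called lower and the median difference was 0.011. The 7 cluster runs there had a median of -0.081, and 1 of them was called, run 19. Of the 1432 runs with a mean of 1 to 2, 4.89% were called lower, and the 2 cluster runs there were run 18 at -1.79, which was called, and run 33 at 0.90. Of the 662 runs with a mean of at least 3, 0.302% were called lower, and the only cluster run there, run 4, was one of them.

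**Figure D4:**
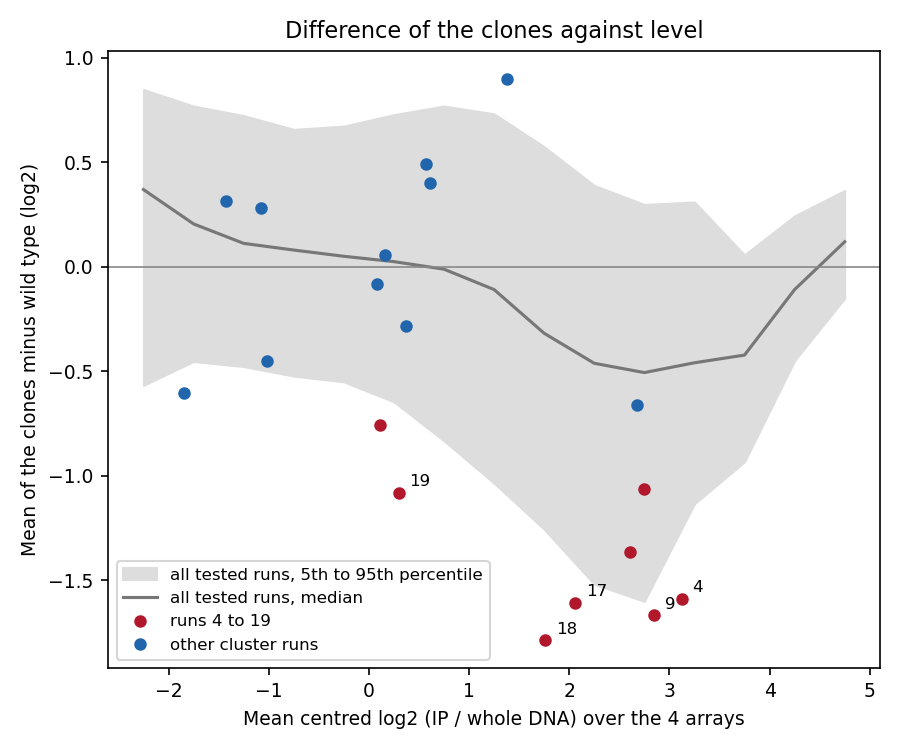
Mean of the clones minus wild type (vertical axis, log2) against the mean level over the 4 arrays (horizontal axis, centred log2 of immunoprecipitated over whole DNA) for the 19 tested runs of the cluster, over the median (line) and the 5th to 95th percentile (grey band) of all tested runs in bins of level. Runs 4, 9, 17, 18 and 19 are numbered; these called runs lie below the lower edge of the band.

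The whole-DNA channel carries the amount of DNA at each probe, and the part of copy number in the differences was not tested. In Cy3, centred in the same way, the median over the cluster's probes was 0.11 above wild type in clone 210-58, 0.072 above it in clone 226-47 and 0.074 above it after PJ34. Over the 16 runs of blocks 2 to 4, the Cy3 differences of the 3 arrays from wild type lay between -0.18 and 0.46, with medians of 0.12, 0.10 and 0.065. The median over all probes of chromosome 18 was 0.0061, 0.050 and 0.036.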

How the data were processed

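DNA of 4 embryonic stem cell samples was read on 2-colour CpG island arrays, 1 array per sample, and no dyes were swapped. The deposited intensity of each spot was extracted with Agilent Feature Extraction 10.7.3.1 per the file headers (9.1 per the submitters' processing notes), with background subtraction and linear dye normalization. The ratio in the deposited value table equals processed Cy5 over Cy3 of the same array within 5.0e-09. No header or label read here names the genome build.

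Control spots (5950), 442 probes without a position and 30 flagged as outliers were left out. No probe was saturated. The log2 ratio was centred on each array's median, with no loess or quantile step, and averaged over each run of probes. limma 3.58.1 in R 4.3.3 (lmFit, eBayes with a mean-variance trend) compared the clones with wild type and with PJ34 over all 14121 runs of at least 3 probes, with Benjamini-Hochberg adjustment and a threshold of 0.05. There was 1 residual degree of freedom and the prior degrees of freedom were infinite, so standard errors follow the trend. They do not take the number of probes in a run into account. Called runs 4, 9 and 17 hold 3 probes each, while the median over the array's runs is 6. The fit was also run on simulated data that gave wild type the clone-to-clone spread at each level. That simulation cannot show whether this spread holds for wild type.

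Runs described one by one are those called in either comparison, the 6 highest and 6 lowest, the 4 largest differences each way in the clones and after PJ34, the run with most probes, and the first and last run of each block. Runs 6, 13, 16 and 29 were added after their values were seen. The cluster, the lists and the rules were chosen with earlier results of these data known. Alternatives covered background correction, normalization, scaling, how runs are joined and filtered, the prior, the size threshold, each clone and each channel. Normexp was run on raw median signals, since no column of raw means was used. Sequences are not reported here.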

Additional observations from a re-analysis of the deposited data

Results flagged for a closer look

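Run 18 was the only run of the cluster in which the test of the clones against PJ34 passed: the clones were lower by -1.46 (log2; limma adjusted p = 0.00763), and both clones lay below PJ34. With normexp background correction the value was -1.03 (limma adjusted p = 0.0950).

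In 3 runs of 1 probe each, both clones lay on the other side of wild type from PJ34, and the difference was not tested. All 3 had a mean above 3 over the 4 arrays. Among the 662 tested runs of the array with a mean of at least 3, PJ34 was above wild type in 600. The clones' mean was below wild type in 456 of those 662. The mean of the clones minus wild type was -1.43 in run 26, where PJ34 was 0.92 above wild type. It was -0.42 in run 12, where PJ34 was 0.10 above, and -0.21 in run 11, where PJ34 was 0.68 above. PJ34 was below wild type, as the clones' mean was, in run 11 under quantile normalization (-0.39), and in run 12 under quantile normalization (-0.63), loess (-0.25) and scaling by the median absolute deviation (-0.42). With that scaling the clones' mean was 0.17 above wild type in run 11.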

How the results depend on the processing

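The direction of the clones in runs 4, 9, 17, 18 and 19 was the same under every alternative with a test. The call held in 6 of 11 alternatives for run 4, 8 of 11 for run 9, 9 of 11 for run 17, 10 of 12 for run 18 and 7 of 12 for run 19, and run 18 against PJ34 held in 9 of 12. No reported value changed sign after being called. Causes of the shifts below were not tested, beyond those that change the number of runs.

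Called runs against wild type numbered 0 under quantile normalization, 0 under loess, 3 with the median over probes, 2 among runs of 5 or more probes and 10 when runs of 1 or more probes were tested. With scaling they numbered 4, of which 3 were lower and 1, run 33, was higher. The fit with runs of 1 or more probes called runs 4, 5, 7, 8, 9, 10, 17, 18, 19 and 21, where 2.89% of all runs and 5.9% of short ones were called. Called runs against PJ34 numbered 0 under quantile normalization, 0 under loess, 2 with scaling by the median absolute deviation, 2 with probes well above background, 2 without a trend in eBayes and 3 with runs of 1 or more probes. The share of all runs called against PJ34 was not counted at these settings. All runs called on the array against wild type numbered 27 under quantile normalization, 0 under loess, 781 with scaling and 182 without a trend.

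Counts of runs differing by at least 1, either way, were as follows. With normexp there were 5 for clone 210-58 and 0 for PJ34 against wild type, and 1 between the clones. Between the clones there were 3 under quantile normalization, 3 with scaling, 3 with probes well above background and 0 under loess. Loess gave 2 for the clones' mean, 3 for clone 210-58, 1 for clone 226-47 and 0 for PJ34 against wild type, and 0 for the clones against PJ34. Scaling gave 2 for the clones against PJ34. Joining at 1000 bp gave 1 for PJ34. With runs of 1 or more probes there were 14 for the clones' mean, 14 for clone 210-58, 17 for clone 226-47, 4 for PJ34, 8 between the clones and 9 against PJ34. Among runs of 5 or more probes there were 2, 4 and 1 for the clones' mean, clone 210-58 and clone 226-47, and 1 against PJ34. A threshold of 0.5 gave 13 for clone 210-58, 11 for clone 226-47, 7 for PJ34 and 13 for the clones against PJ34, and a threshold of 2 gave 0 in all 6 comparisons. Shares over all runs were not counted at any of these settings, so these counts cannot be set against the array.

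The median difference from wild type over tested runs became, with normexp, -0.19 for the clones' mean, -0.16 for clone 210-58 and -0.22 for clone 226-47, and -0.30 for the clones against PJ34. Under loess the latter was -0.34. Joining at 250 bp gave -0.095 for clone 210-58 and -0.35 for clone 226-47. Runs of 5 or more probes gave -0.013, 0.20 and -0.070 for the clones' mean, clone 210-58 and clone 226-47, and -0.20 against PJ34. Probes well above background gave -0.29 for the clones' mean and 0.16 for clone 210-58. The Cy5 channel alone gave -0.087 for clone 210-58. Median levels became 0.46 in clone 210-58 with normexp, 0.92 in wild type and 0.86 for PJ34 under loess, 1.53 in wild type, 0.62 in clone 226-47 and 1.59 for PJ34 with runs of 1 or more probes, 0.50 in clone 210-58 and -0.012 for PJ34 with runs of 5 or more, and 0.58 in clone 226-47 and 1.44 for PJ34 with probes well above background.

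For runs 4 to 19, both clones were below wild type in 14 of 16 with scaling, in 14 of 16 in Cy5 alone and in 17 of 18 with joining at 250 bp, and in every run under the other alternatives. Both clones were below PJ34 in 15 of 16 under quantile normalization, in 14 under loess, in 14 with scaling and in 17 of 18 with joining at 250 bp. The median difference of the clones from wild type was -0.80 under loess. Leaving out each clone in turn left no residual degrees of freedom and gave values only. The median difference from PJ34 ranged from -0.94 without clone 210-58 to -0.49 without clone 226-47, and the runs differing from PJ34 by at least 1 from 8 to 5. Raw Cy5 signal limits low levels: its array medians were 133 to 154.5 over a background of 56.5 to 57.5.

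No paired analysis was possible because wild type and PJ34 have 1 array each, so a replicate block or slide block leaves no residual degrees of freedom. Within slide 2, clone 226-47 was lower than PJ34 by at least 1 in 8 runs, against 3.82% of all runs.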
